A study of Mus musculus with 12 samples.

Results

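The ligands, receptors and enzymes of osteoclast formation were followed in superficial zone (SFZ) and deep zone (DZ) chondrocytes, as 8 of the 17536 genes in the deposited expression table. They were taken by symbol: Tnfsf11, Csf1, Il34, Tnfrsf11b, Tnfrsf11a, Csf1r, Acp5 and Ctsk, and all 8 were found. The 12 RNA-seq libraries came from 5-day-old C57BL/6 mice that were either Runx3 fl/fl (R3-Cntl) or Col2a1-Cre; Runx3 fl/fl (R3-cKO), with 3 libraries for each genotype in each zone. Both genotypes carry the floxed Runx3 allele, and the Cre of the R3-cKO mice is driven by the Col2a1 promoter, which is active in chondrocytes. By the study's methods the mice were littermates, SFZ cells were released by a first enzyme digestion of the cartilage and DZ cells by further digestion of what remained, and cells were grown as a monolayer.

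Osteoclasts are multinucleated bone-resorbing cells that arise from the monocyte and macrophage lineage. Their precursors need CSF1 or IL34, which bind the receptor CSF1R, and RANKL (encoded by Tnfsf11), which binds RANK (Tnfrsf11a) and starts differentiation. Osteoprotegerin (Tnfrsf11b) is a secreted decoy receptor that captures RANKL.

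The targeted gene was examined first. In SFZ, Runx3 measured 10.7, 5.98 and 6.65 FPKM (fragments scaled by transcript length and library size) under the label R3-Cntl, against 11.8, 9.07 and 3.42 under the label R3-cKO. The DZ values were 12.7, 12.7 and 7.66 under R3-Cntl, against 16.0, 12.7 and 8.14 under R3-cKO. The genotypes overlapped in both zones and Runx3 was not lower under the label R3-cKO, so every direction given for R3-cKO below is that of the libraries so labelled. The table gives a single value per gene, so reads from the floxed exons of Runx3 cannot be told apart from the rest. The related genes Runx1 and Runx2 were present in each library, at 1.73 to 5.82 and 6.49 to 13.2 FPKM.

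Some libraries stood apart within R3-cKO. The summed level of 4 Y-linked genes was 28.3 and 29.6 FPKM in library 1 of SFZ and DZ labelled R3-cKO, against 0.06, 0.03, 0.01 and 0.03 in those numbered 2 and 3. Under R3-Cntl this sum was 42.9, 12.1 and 52.4 in SFZ and 40.0, 16.8 and 17.0 in DZ. Eif2s3y, the most abundant of the 4, was at 0 in the same 4 R3-cKO libraries, and 0 of the 4 genes passed the test in any comparison. Sums near 0 were found only under R3-cKO, so in libraries 2 and 3 this and genotype cannot be told apart. Values without R3-cKO libraries 2 and 3 are therefore given as well, a choice made after seeing the data, in which the lone library left in a group is assumed to vary like the others.

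The zone labels were checked against cartilage genes. All 10 chondrocyte genes passed the test as higher in DZ (limma, adjusted p under 0.05), against 4.3% of all genes tested, with a median log2 fold change of 1.41 against -0.14 for all genes. In these bulk samples, fewer cells of a type and less RNA per cell cannot be told apart. Among them were Matn1 (2.22, SE 0.61), Matn3 (2.12, SE 0.53), Acan (2.11, SE 0.42), Col9a1 (1.66, SE 0.37) and Sox9 (0.80, SE 0.17). Col2a1, the main cartilage collagen, was the most abundant at 3049 to 9229 FPKM in SFZ and 11248 to 22791 in DZ, a change of 1.57 (SE 0.30). Of 9 superficial zone and fibroblast genes 7 were lower in DZ, against 18.9% of all genes tested, and 0 higher, with a median of -1.71, led by Postn (-5.21, SE 0.52), Cd34 (-3.70, SE 0.23), Thy1 (-3.49, SE 0.35) and the most abundant, Col3a1 (-2.34, SE 0.58). Cd34 and Tnxb, the latter named after its values were seen, entered this test only through their SFZ values. Dcn, the gene of decorin and the next most abundant of the list by its mean over the 12 libraries, lay the other way, at 1.19 (SE 0.40; limma adjusted p = 0.0507), and was also named after its values were seen. It passed with size factors and the replicate block (adjusted p = 0.0416 and 0.0158), and without SFZ library 1, SFZ library 3 or DZ library 2 of R3-cKO (0.0477, 0.0297 and 0.0425). Prg4, the gene of lubricin, was at 2.13 to 22.2 FPKM in SFZ and 1.22 to 5.72 in DZ, a difference of -1.32 (SE 0.46; limma adjusted p = 0.0576). It passed without SFZ library 2, SFZ library 3 or DZ library 1 of R3-cKO (adjusted p = 0.0381, 0.0388 and 0.0226), and with the replicate number within each genotype as a block (0.0484). Between genotypes in SFZ, Prg4 was 22.2, 8.38 and 7.13 FPKM under R3-Cntl and 6.95, 2.47 and 2.13 under R3-cKO, without overlap, also for R3-cKO library 1 alone. This difference of -1.45 (SE 0.52) did not pass limma's test over all genes, and in DZ the genotypes overlapped.

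Tnfsf11, the RANKL gene (Entrez gene 21943, chr14:78677252-78707850, reverse strand, mm9), was low in all libraries. In SFZ it measured 1.13, 0.97 and 0.80 FPKM under R3-Cntl and 0.46, 0.60 and 0.38 under R3-cKO, and these genotypes did not overlap. In DZ it was 0.84, 1.12 and 0.57 under R3-Cntl and 0.27, 0.66 and 0.22 under R3-cKO, where library 2 of R3-cKO lay above library 3 of R3-Cntl. DZ libraries of the same number deviated together, and R3-cKO was lower in all 3 DZ pairs of a number. The share of all genes with that direction in each pair was not counted. Group means were 0.967 ± 0.165 and 0.480 ± 0.111 (SD, n = 3) in SFZ, and 0.843 ± 0.275 and 0.383 ± 0.241 in DZ. The exact two-sided permutation test of 3 against 3 libraries, which cannot go below 0.1, gave p = 0.1 in SFZ and p = 0.2 in DZ. Of all genes above 0 in SFZ, 1.17% likewise had R3-cKO below R3-Cntl without overlap. R3-cKO library 1 by itself was below all R3-Cntl libraries of its zone, at 0.46 FPKM in SFZ and 0.27 in DZ.

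Tnfsf11 did not reach 1 FPKM in 3 libraries of a zone and was not among the genes tested. With no filter on low values its log2 fold change between genotypes was -0.41 (SE 0.094) in SFZ and -0.42 (SE 0.16) in DZ, and neither passed limma's test with Benjamini-Hochberg adjustment. These fold changes are on the scale of log2(FPKM + 1), which understates changes of low genes. Between zones Tnfsf11 overlapped, at 0.38 to 1.13 FPKM in SFZ and 0.22 to 1.12 in DZ (exact permutation p = 0.519, 6 against 6).

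The promoter of Tnfsf11 is shown because its SFZ values did not overlap between genotypes of a RUNX factor. RefSeq windows of 300 bases around the gene start (GRCm38.p6) were matched for 5 of the 8 genes, and Tnfrsf11b, Il34 and Csf1r were not matched. Both strands were searched for TGTGGT and TGCGGT, core letters bound by RUNX proteins, and a match would stand in capitals. The 7 windows of Tnfsf11, Csf1, Tnfrsf11a, Acp5 and Ctsk held 0 matches, and 22.4% of all 32851 windows held at least 1. This says only that these letters are not in the windows, and forms of the core that end in C were not searched. The Tnfsf11 window lies at chr14:78307994-78308293 on the reverse strand and has a GC content of 61.7%.
Tnfsf11: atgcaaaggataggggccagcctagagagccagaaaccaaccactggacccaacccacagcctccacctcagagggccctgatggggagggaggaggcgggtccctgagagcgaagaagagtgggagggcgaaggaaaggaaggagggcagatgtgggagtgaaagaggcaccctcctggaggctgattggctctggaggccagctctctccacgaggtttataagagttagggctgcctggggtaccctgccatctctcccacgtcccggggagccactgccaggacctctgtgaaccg

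**Figure D1:**
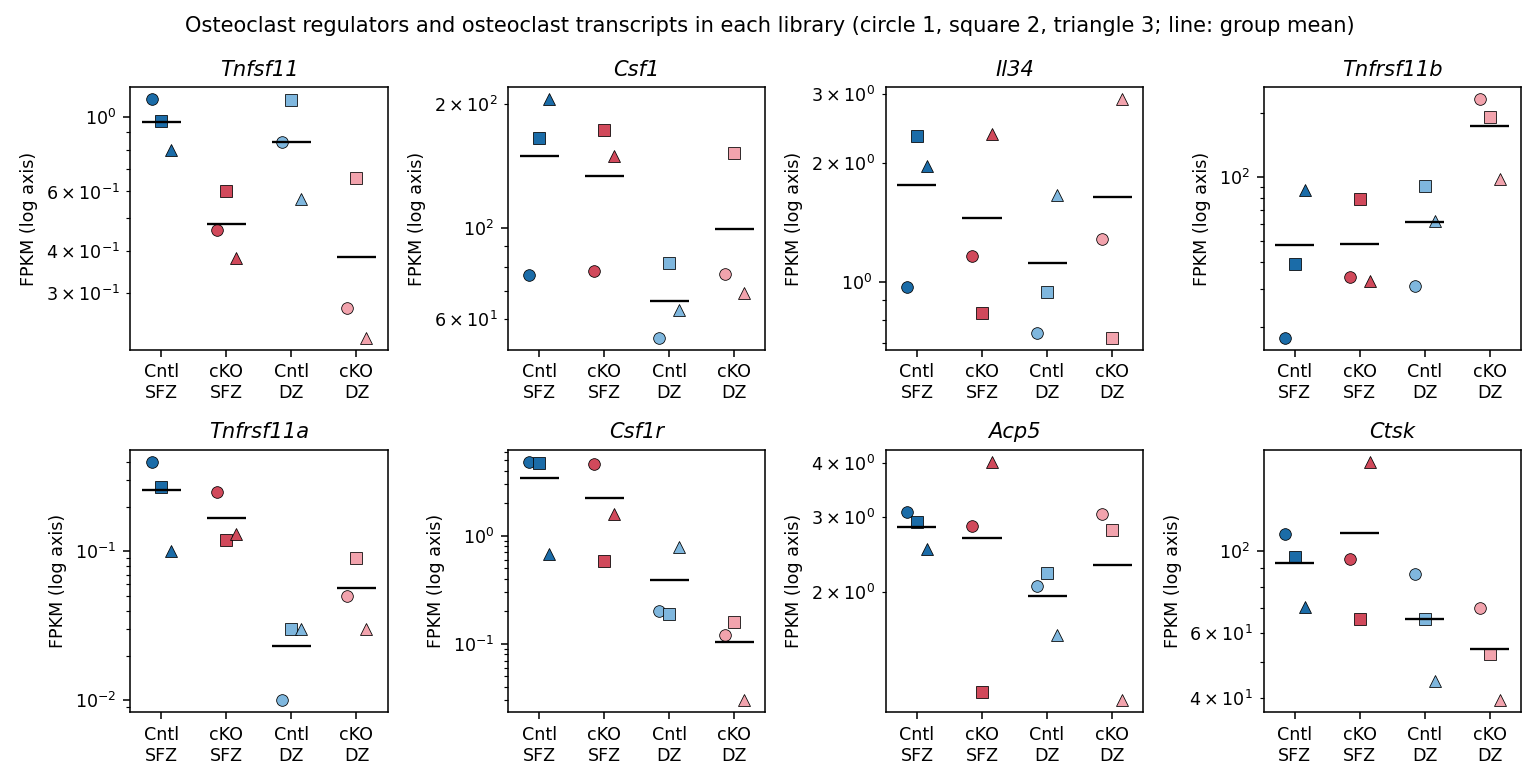
FPKM of the 8 genes in each of the 12 libraries on logarithmic axes, by zone and genotype, with the group mean as a line. Tnfsf11 was 0.80 to 1.13 FPKM in R3-Cntl SFZ and 0.38 to 0.60 in R3-cKO SFZ, and Tnfrsf11b was 97.7 to 231 in R3-cKO DZ against 30.8 to 91.3 in R3-Cntl DZ.

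Csf1 (Entrez gene 12977, chr3:107543966-107563387, reverse strand, mm9), the main growth factor of the macrophage lineage, had the highest mean of the 8 over the 12 libraries, 112 FPKM. In SFZ it measured 76.6, 165 and 206 FPKM under R3-Cntl and 78.3, 173 and 149 under R3-cKO. In DZ it was 53.9, 81.8 and 62.9 under R3-Cntl and 77.1, 152 and 69.1 under R3-cKO. Library 1 was the lowest of both SFZ groups, and the genotypes overlapped in each zone, as did the zones. The zone difference was -0.75 (SE 0.30; limma adjusted p = 0.0943) and did not pass the test, with an unadjusted exact permutation p = 0.0368. It passed without SFZ library 1 or DZ library 2 of R3-cKO (adjusted p = 0.0398 and 0.0334), and with the replicate block (0.0321). The genotype difference was -0.12 (SE 0.45) in SFZ and 0.51 (SE 0.32) in DZ, and neither passed. With a library left out the DZ difference was 0.16 to 0.72, the lowest without DZ library 2 of R3-cKO. In the 3 same-number DZ pairs R3-cKO was the higher each time. How many of all genes did the same was not counted.

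Il34 (Entrez gene 76527, chr8:113265729-113329824, reverse strand, mm9), the other ligand of CSF1R, ranged from 0.83 to 2.37 FPKM in SFZ and from 0.72 to 2.91 in DZ. The zone difference of -0.15 (SE 0.24) did not pass the test and turned to 0.11 under quantile normalization. The Csf1 to Il34 ratio in SFZ was 79.0, 70.6 and 104 under R3-Cntl and 67.5, 209 and 63.0 under R3-cKO. In DZ it was 72.8, 87.0 and 37.9 under R3-Cntl and 60.2, 211 and 23.7 under R3-cKO. Library 2 of R3-cKO was the highest in each zone, and genotypes and zones overlapped (exact permutation p = 1 between genotypes in SFZ and in DZ, 0.340 between zones).

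Tnfrsf11b, the osteoprotegerin gene (Entrez gene 18383, chr15:54082174-54110039, reverse strand, mm9), was the 1 gene of the 8 that lay higher under R3-cKO without overlap. In DZ it measured 30.8, 91.3 and 62.5 FPKM under R3-Cntl and 231, 190 and 97.7 under R3-cKO, and each R3-cKO value was above each R3-Cntl value. In SFZ it was 17.7, 39.3 and 87.0 under R3-Cntl and 34.2, 79.1 and 32.7 under R3-cKO, which overlapped. The DZ means were 61.5 ± 30.2 and 173 ± 68.4 (SD, n = 3; exact permutation p = 0.1, the smallest possible). The DZ log2 fold change of 1.52 (SE 0.47) did not pass limma's test (adjusted p = 0.999). Of all genes above 0 in DZ, 4.71% had R3-cKO above R3-Cntl without overlap. Without R3-cKO libraries 2 and 3 the DZ difference was 2.02 (SE 0.57). The SFZ difference was 0.17 (SE 0.62), and the difference in effect between zones, 1.35 (SE 0.85), did not pass the test (limma adjusted p = 0.999). With a library left out the difference in effect was 0.79 to 1.90, the ends being without SFZ libraries 3 and 1 of R3-Cntl.

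Between zones Tnfrsf11b differed by 1.17 (SE 0.45), which did not pass the test (limma adjusted p = 0.0835). It passed without SFZ library 3 or DZ library 1 of R3-Cntl (adjusted p = 0.0229 and 0.0463), and with the replicate block (0.0377). The zone difference was 0.50 (SE 0.61) within R3-Cntl and 1.84 (SE 0.45) within R3-cKO, neither of which passed (limma adjusted p = 0.619 and 0.184), and these 2 were not shown to differ by the test of the difference in effect above.

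Set against its decoy receptor, Tnfsf11 was the rarer transcript in all 12 libraries. In SFZ, Tnfrsf11b exceeded Tnfsf11 by 15.7, 40.5 and 109 times under R3-Cntl and by 74.2, 132 and 86.1 times under R3-cKO. In DZ the excess was 36.7, 81.5 and 110 times under R3-Cntl and 856, 288 and 444 times under R3-cKO. The DZ genotypes did not overlap in this ratio and the SFZ genotypes did. With 0.1 FPKM added to each value, the log2 ratio of Tnfsf11 to Tnfrsf11b differed by -2.57 in DZ (exact permutation p = 0.1, 3 against 3) and by -1.07 in SFZ (p = 0.3). In SFZ it was -0.38 without library 1 of R3-Cntl and -1.75 without library 3 of R3-Cntl, and with 1 FPKM added in place of 0.1 it was -1.93 in DZ and -0.58 in SFZ. Between zones it differed by -1.47 (exact permutation p = 0.0887, 6 against 6), and by -1.06 to -1.90 with a library left out (p = 0.177 to 0.0303, the lowest without DZ library 1 of R3-Cntl). Within R3-Cntl the zone difference in the ratio was -0.72 (exact permutation p = 0.7) and within R3-cKO -2.22 (p = 0.1, the smallest that 3 against 3 allows). The R3-Cntl value was -0.04 without SFZ library 1 and -1.41 without SFZ library 3. The R3-cKO value was -1.83 without DZ library 1 and -2.49 without SFZ library 2. Whether the genotypes differ in this was not tested. With R3-cKO library 1 alone the genotype difference was -3.35 in DZ and -0.72 in SFZ, values with no test.

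**Figure D2:**
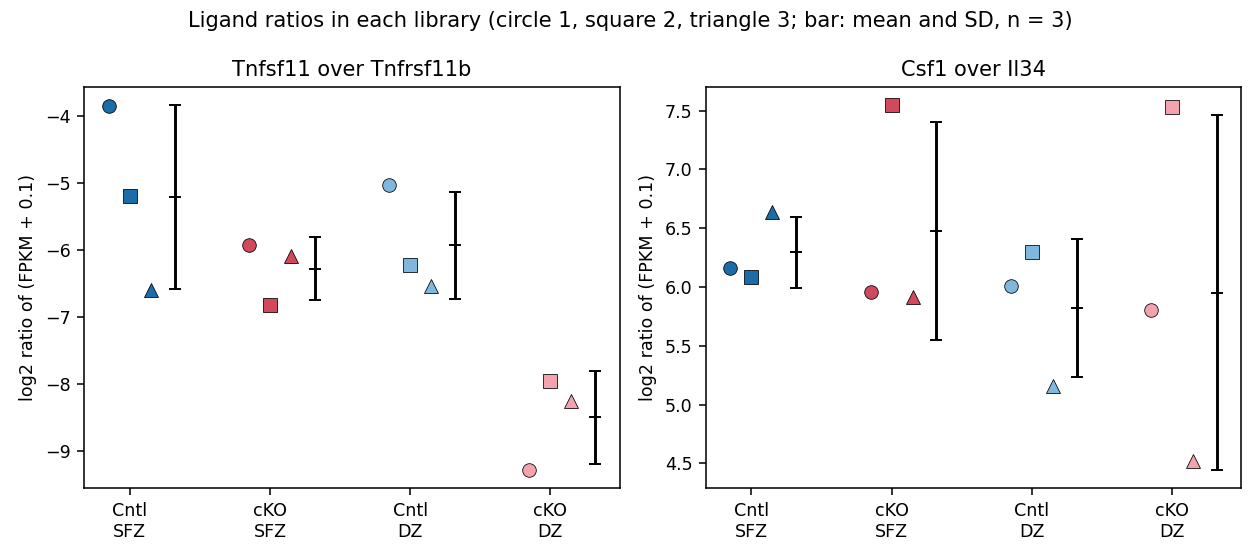
Log2 ratio of Tnfsf11 to Tnfrsf11b and of Csf1 to Il34 in each library, with 0.1 FPKM added to each value, and the mean with SD of 3 libraries. The R3-cKO DZ libraries were at -9.29, -7.97 and -8.26 for Tnfsf11 to Tnfrsf11b and the R3-Cntl DZ libraries at -5.04, -6.23 and -6.55.

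In order of mean FPKM, Csf1, Ctsk and Tnfrsf11b took the first 3 places in each group, and neighbours among them overlapped. In R3-Cntl SFZ the means were 149, 92.6 and 48.0 FPKM, and in R3-cKO DZ the order was Tnfrsf11b at 173, Csf1 at 99.3 and Ctsk at 54.2. Tnfrsf11a had the lowest mean in each group and in R3-cKO DZ overlapped with Csf1r.

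Csf1r, the receptor of CSF1 and IL34 (Entrez gene 12978, chr18:61265226-61291803, forward strand, mm9), differed by zone. In SFZ it measured 4.83, 4.67 and 0.68 FPKM under R3-Cntl and 4.60, 0.58 and 1.59 under R3-cKO. In DZ it was 0.20, 0.19 and 0.79 under R3-Cntl and 0.12, 0.16 and 0.03 under R3-cKO. Values above 4 FPKM were found in 3 of the 6 SFZ libraries, and the lowest SFZ values overlapped with DZ library 3 of R3-Cntl. Csf1r reached 1 FPKM in SFZ libraries only, so it entered the filtered test through its SFZ values. Its zone test gave limma adjusted p = 0.0153, or 0.0231 with no filter on low values, and exact permutation p = 0.00649. Csf1r was lower in DZ by a log2 fold change of -1.42 (SE 0.35), or -1.28 relative to the median gene. With pseudocounts of 0.1 and 5 in place of 1 it was -2.90 and -0.53, and the ratio of the SFZ to the DZ mean was 11.4. Without R3-cKO libraries 2 and 3 it was -1.69 (SE 0.43; adjusted p = 0.0468). In DZ alone the genotypes did not overlap, with R3-cKO lower, as for 2.92% of genes above 0 (exact permutation p = 0.1), and both groups were under the filter.

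Csf1r was the 1 gene of the 8 to pass between zones, where 23.2% of 11765 genes tested passed and 18.9% passed as lower in DZ. Only 6 of the 8 genes were tested, and Csf1r was among them only through SFZ libraries, so the count is a description. With the replicate block 4 of the 6 tested passed, as did 33.7% of all genes tested, and the numbers paired libraries across zones in R3-cKO but not in R3-Cntl. In DZ 5 of the 8 were tested between genotypes, and in SFZ 6. Over all genes 2219 were lower and 506 higher in DZ, with a median of -0.14. The split was 1080 lower and 1050 higher with median-of-ratios size factors and 915 lower and 1237 higher with quantile normalization, which moved the median to 0.0032 and 0.034. Without R3-cKO libraries 2 and 3 there were 1276 genes.

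Tnfrsf11a, the RANK gene (Entrez gene 21934, chr1:107677300-107744558, forward strand, mm9), was below 1 FPKM in all 12 libraries. In SFZ it measured 0.40, 0.27 and 0.10 under R3-Cntl and 0.25, 0.12 and 0.13 under R3-cKO. In DZ it was 0.01, 0.03 and 0.03 under R3-Cntl and 0.05, 0.09 and 0.03 under R3-cKO. All 6 DZ values were below all 6 SFZ values, as for 7.65% of genes (exact permutation p = 0.00216, the smallest that 6 against 6 allows). The permutation tests between zones treat the libraries as independent, although both zones of a genotype come from the same mice. With no filter on low values its log2 fold change was -0.22 (SE 0.056; limma adjusted p = 0.0258).

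Macrophage genes varied with both receptors. The sum of 21 macrophage genes other than Csf1r was 258, 210 and 9.25 FPKM in SFZ under R3-Cntl and 211, 20.4 and 94.4 under R3-cKO. In DZ the sum was 14.2, 11.5 and 33.9 under R3-Cntl and 9.43, 6.46 and 6.15 under R3-cKO. The 3 libraries with Csf1r above 4 FPKM also had the highest sums. Of the 22 genes with Csf1r, 19 were tested, and 14 were lower in DZ, against 18.9% of all genes tested, and 0 higher, with a median of -1.42 against -0.14 for all genes. Within DZ only 3 of the 22 passed the filter, so most entered the test through their SFZ values and this count, too, is a description. Lyz2, a lysozyme gene and the most abundant, fell by 2.66 (SE 0.82), and Ctss, Fcer1g and Cd68 fell by 2.36, 2.15 and 2.12. No gene of the list was at 0 in all libraries, and Ptprc, the general leukocyte marker, reached at most 0.88 FPKM. Over the 12 libraries the log2 sum had r = 0.967 with Csf1r, 0.851 with Tnfrsf11a, -0.798 with Tnfrsf11b, 0.685 with Ctsk, 0.470 with Acp5, 0.268 with Tnfsf11, 0.116 with Il34 and 0.025 with Csf1. After group means were removed these were 0.968, 0.853, -0.666, 0.393, 0.400, -0.025, 0.044 and -0.634. Blood and vessel genes were also highest in the same 3 SFZ libraries. The sum of 6 endothelial genes was 5.64, 3.15 and 3.03 FPKM there, at most 0.72 in the other SFZ libraries and at most 0.37 in DZ. The sum of 9 erythroid and neutrophil genes was 12.7, 4.93 and 1.87 there and at most 1.18 in the other libraries. The part of these cell types in the result was not tested.

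**Figure D3:**
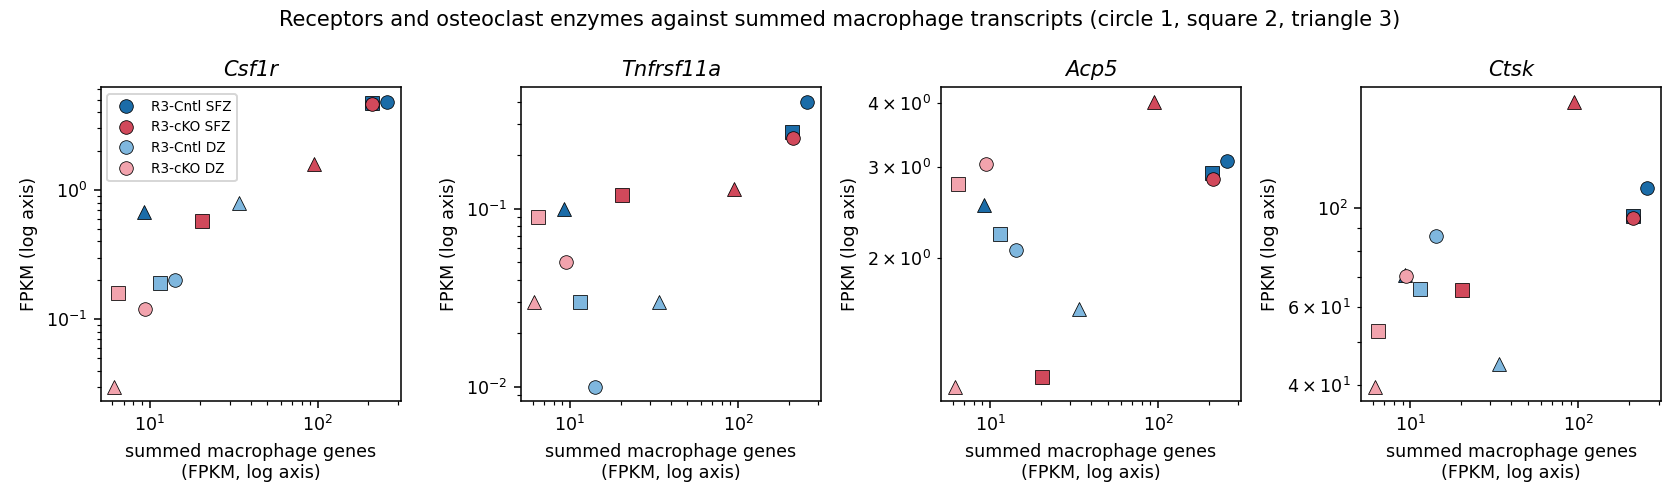
FPKM of Csf1r, Tnfrsf11a, Acp5 and Ctsk against the summed FPKM of 21 macrophage genes in each library, on logarithmic axes. Csf1r reached 4.60 to 4.83 FPKM in the 3 SFZ libraries where the sum was 210 to 258 FPKM.

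Ctsk, the gene of cathepsin K, a collagen-degrading protease of osteoclasts (Entrez gene 13038, chr3:95303208-95313284, forward strand, mm9), was abundant throughout. In SFZ it measured 111, 96.0 and 70.7 FPKM under R3-Cntl and 95.2, 65.5 and 174 under R3-cKO. In DZ it was 86.7, 65.6 and 44.5 under R3-Cntl and 70.3, 52.9 and 39.5 under R3-cKO. SFZ library 3 of R3-cKO was the highest, and zones and genotypes overlapped. The zone difference of -0.73 (SE 0.25; limma adjusted p = 0.0584) did not pass the test, with an unadjusted exact permutation p = 0.0152. It passed without SFZ library 3 or DZ library 1 of R3-Cntl or SFZ library 2 of R3-cKO (adjusted p = 0.0466, 0.0445 and 0.0348), and with the replicate block (0.0458). The genotype differences were 0.17 (SE 0.37) in SFZ and -0.26 (SE 0.30) in DZ. There R3-cKO was lower in all 3 same-number DZ pairs, a direction not counted over all genes. With a library left out the DZ difference was -0.51 to -0.034, the smallest without DZ library 1 of R3-Cntl.

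Acp5, the gene of tartrate-resistant acid phosphatase (Entrez gene 11433, chr9:21931175-21940190, reverse strand, mm9), ranged from 1.17 to 4.03 FPKM in SFZ and 1.12 to 3.04 in DZ. Its zone difference was -0.25 (SE 0.21), and zones and genotypes overlapped. This difference was -0.016 with quantile normalization, -0.14 with size factors and -0.42 to -0.14 with a library left out. Acp5 and Ctsk had r = 0.761 over the 12 libraries and 0.846 after group means were removed.

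Several other osteoclast genes were near 0. Calcr, the calcitonin receptor gene, was at 0 in 10 of 12 libraries and reached at most 0.01 FPKM. Dcstamp and Ocstamp, needed for cell fusion, reached at most 0.08 and 0.11, and Siglec15 and Oscar at most 0.10 and 0.22. Mmp9 was 3.43 and 3.12 in SFZ libraries 1 and 2 of R3-Cntl and at most 0.25 elsewhere. Atp6v0d2, a proton pump subunit, was 2.96, 1.82 and 0.07 in SFZ under R3-Cntl and 1.08, 0.07 and 0.48 under R3-cKO, and at most 0.18 in DZ. Its values above 1 FPKM were in the 3 libraries with the highest macrophage sums. Itgb3, an integrin subunit, was 0.74 to 1.97 in SFZ and 0.41 to 1.27 in DZ. Other genes of the list were not low. Nfatc1, Snx10 and Plekhm1 were at 8.07 to 14.6, 4.85 to 10.4 and 4.33 to 7.0 FPKM over the 12 libraries. These genes were named after their values were seen, as was Ptprc. Of 18 osteoclast genes 7 never reached 1 FPKM, and of 10 tested 3 were lower in DZ, against 18.9% of all genes tested, and 0 higher. They were Tcirg1 (-0.67, SE 0.14), Ostm1 (-0.50, SE 0.12) and Clcn7 (-0.43, SE 0.13), which serve acid and chloride transport, and the median of the list was -0.46. Ctsk was its most abundant gene. The list summed to 187, 170 and 130 FPKM in SFZ under R3-Cntl and 174, 123 and 249 under R3-cKO. In DZ it summed to 136, 119 and 94.6 under R3-Cntl and 134, 108 and 91.7 under R3-cKO.

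Genes that carry the RANK signal inside the cell were present in both zones. All 23 were tested, and 3 were lower in DZ (Gab2 -0.46, Ikbkg -0.38, Map3k7 -0.32) and 1 higher (Traf3 0.22), with a median of -0.20, where 23.2% of all genes tested passed. Gab2 was under 1 FPKM in all DZ libraries and entered the test through its SFZ values. Tab2 was the most abundant at 57.6 to 78.0 FPKM. Of 24 other genes by which stromal cells act on osteoclasts, 17 were tested, with a median of -0.25 against -0.14 for all genes. Of the 17, 6 were lower in DZ and 2 higher, against 18.9% and 4.3% of all genes tested. Cxcl12 (-3.06, SE 0.68), Ccl2 (-2.35, SE 0.43), Mmp14 (-1.57, SE 0.34) and Wnt5a (-1.15, SE 0.14) had the largest changes of the list, and Mmp14 was its most abundant. Ccl2 reached 1 FPKM in 1 DZ library and entered the test through its SFZ values. The 2 higher genes, named after their values were seen, were Pth1r (1.10, SE 0.15), the receptor of parathyroid hormone, and Lgr4 (0.78, SE 0.18). Of 14 hypertrophic chondrocyte and osteoblast genes 12 were tested, with a median of 0.062 against -0.14 for all genes. Of the 12 tested, 4 were lower in DZ and 0 higher, against 18.9% and 4.3% of all genes tested. The 4 lower genes were Col1a1 (-3.73, SE 0.80), the most abundant, Bglap (-2.26, SE 0.34), Bglap2 (-2.20, SE 0.27) and Runx2 (-0.44, SE 0.099). Of the 12, 6 had a positive and 6 a negative zone difference. Col10a1, the hypertrophic collagen gene, named after its values were seen, was at 2.24 (SE 0.89), which did not pass (limma adjusted p = 0.0913). Between genotypes 9 of the 12 were lower and 3 higher under R3-cKO in each zone. The medians were -0.73 in SFZ and -0.54 in DZ, against -0.0075 and 0.047 for all genes. Of the 12 genes 0 passed limma's test in either zone, and a link with Tnfsf11 was not tested. Of 6 endothelial and 9 erythroid or neutrophil genes 0 passed the filter, and the most abundant, Pecam1 and S100a9, reached 1.58 and 5.46 FPKM.

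Between genotypes 0 genes passed limma's test. The share was 0% of 11537 genes in SFZ, with 34 at an unadjusted p under 0.05, and 0% of 11091 in DZ, with 404. The difference in genotype effect between zones gave 0% of 11765 genes, with 99 at an unadjusted p under 0.05. Without SFZ library 2 of R3-cKO limma still gave 0, but the counts at an unadjusted p under 0.05 were 1204 in SFZ and 714 for the difference in effect. In DZ this count was 773 without DZ library 3 of R3-cKO and 211 without DZ library 2 of R3-cKO, again with 0 by limma. Without R3-cKO libraries 2 and 3 limma again gave 0 in all 3, with 176, 238 and 123 at an unadjusted p under 0.05.

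**Figure D4:**
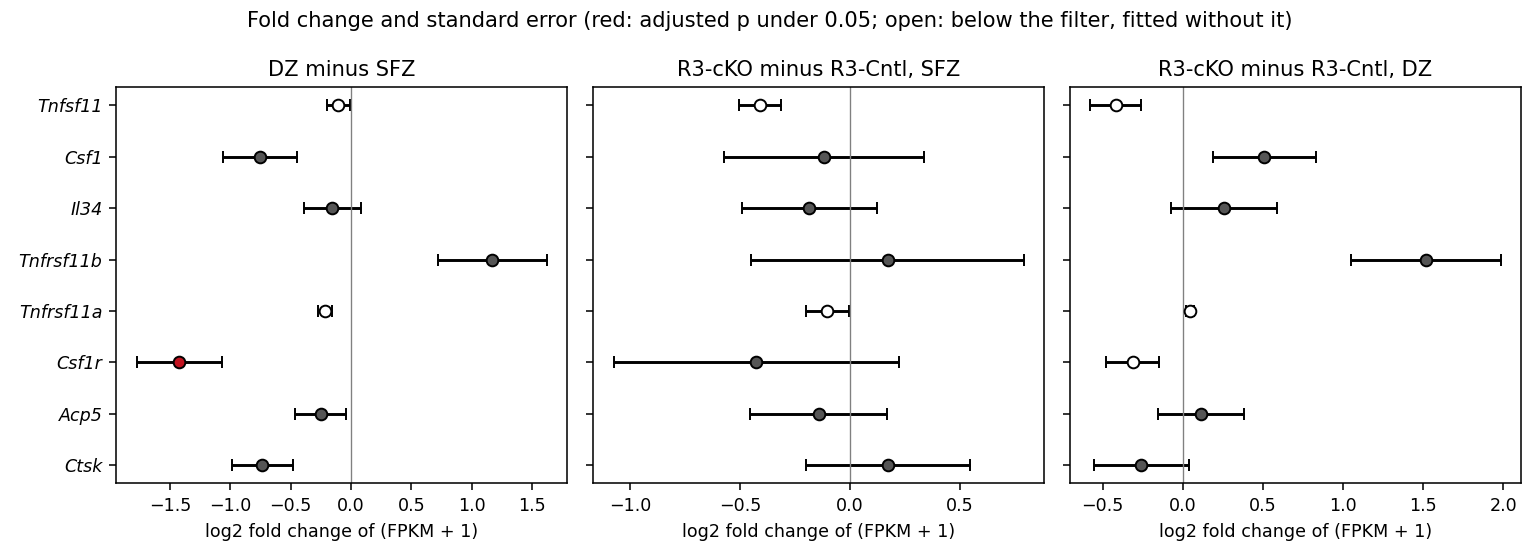
Log2 fold change of FPKM + 1 with its standard error for the 8 genes, between zones and between genotypes in SFZ and DZ. Csf1r at -1.42 between zones is the single point in red, for an adjusted p under 0.05, and open points are genes too low for the filter, fitted without it.

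The genes most like each of the 6 with a mean of at least 1 FPKM, thus not Tnfsf11 and Tnfrsf11a, were ranked by Pearson r of log2(FPKM + 1) over the 12 libraries. Nearest to Csf1r were Fermt3, Cd180 and Lyz1 (r = 0.988, 0.987 and 0.985). Near to Csf1 were Chst7 and Radil (r = 0.974 and 0.970), and to Tnfrsf11b Sulf1, Pkp2 and Foxf1 (r = 0.926, 0.913 and 0.910). Ctsk was followed by Gatb, Pm20d2 and Scpep1 (r = 0.978, 0.946 and 0.935), Il34 by Bend5, Scp2 and Itga7 (r = 0.906, 0.896 and 0.874) and Acp5 by Comtd1, Mettl25 and Trim65 (r = 0.867, 0.821 and 0.813).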

How the data were processed

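RNA from SFZ and DZ cells was sequenced by the authors as paired-end reads on a BGIseq-500, and the submitters' processing notes name Bowtie 0.12.2 and mm9. The deposited values were taken as FPKM with TMM scaling. The file is labelled TMM, and the unit was inferred from the values. The methods name quantile normalization and log2 CPM, but the deposited values are linear. Depth is unknown. Column names gave each library's group.

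Values were analysed as log2(FPKM + 1) with limma 3.58.1 in R 4.3.3, on genes of at least 1 FPKM in at least 3 libraries, with Benjamini-Hochberg adjustment over all genes tested and a threshold of 0.05. The fit was tested on simulated data with the same fixed spread for every gene, which does not give its power in these libraries. Single genes and ratios were compared by exact permutation tests (Python 3.11.15, SciPy 1.17.1, pandas 2.3.3, NumPy 2.4.6). Figures were drawn with matplotlib 3.10.9. Library sums were 392241 to 429213 FPKM.

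The members and lists were chosen with earlier results of these data known. Named were the 8 genes, the Runx genes, Prg4, Col2a1, Acan and Sox9, the 4 largest called zone changes and the most abundant gene of each list, and the 3 genes most like each member with a mean of at least 1 FPKM. A gene that this rule names is not reported here. Same-numbered DZ libraries of both genotypes deviated from their group means together (r = 0.653, 0.781 and 0.687), so the numbers pair them. Alternatives were other filters, pseudocounts, scalings, the block and libraries left out.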

Additional observations from a re-analysis of the deposited data

How the results depend on the processing

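Between zones 2725 genes passed the test, and 1162 at a mean of at least 10 FPKM, with fewer genes tested, 140 in R3-Cntl alone and 2 in R3-cKO alone, with fewer samples, and 1276 without R3-cKO libraries 2 and 3. Leaving out a library gave 1624 to 2899, the lowest without SFZ library 2 of R3-Cntl. Of the 8 genes 1 passed, against 2 with no filter, 0 at a mean of at least 10 and 0 in either genotype alone, settings in which Csf1r was under the filter and not tested, and 1 to 3 with a library left out. Csf1r, which entered the test through its SFZ values alone, was at -1.68 to -1.21 with a library left out. With pseudocounts of 0.1 and 5 it was at -2.90 and -0.53, and in all these settings the limma adjusted p was at most 0.0422.

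With the replicate block 4 of the 8 passed between zones (adjusted p = 0.0377 for Tnfrsf11b, 0.0321 for Csf1, 0.0210 for Csf1r and 0.0458 for Ctsk), among 3965 genes. Prg4 and Runx3 also passed (0.0484 and 0.0198). Across zones the numbers paired libraries in R3-cKO (same-number r = 0.418, 0.781 and 0.653) but not in R3-Cntl (0.575, 0.111 and -0.151), and between genotypes they did not in SFZ (0.787, -0.0944 and -0.415), where numbers 2 and 3 correlated better with another number. In DZ, where they do, the block gave 0 genes by limma, with 1830 at an unadjusted p under 0.05 and a lowest adjusted p of 0.0587, and changed no call among the 5 of the 8 tested there.

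Directions turned for values that did not pass the test, and the cause was not tested. Between zones Il34 was 0.11 with quantile normalization and 0.068 in R3-cKO alone, and Runx1 was 0.20, 0.078 and 0.20 with quantile normalization, size factors and R3-cKO alone. Without R3-cKO libraries 2 and 3 the genotype difference was -0.20 for Tnfrsf11b, 0.55 for Csf1r and 0.0052 for Acp5 in SFZ and 0.15 for Ctsk in DZ, the difference in effect was -0.84 for Csf1r and 0.085 for Ctsk, and the Csf1 to Il34 ratio differed by -0.33 in SFZ and -0.017 in DZ. With a pseudocount of 0.1 the Csf1r difference in effect was -0.54. Leaving out a library gave SFZ differences of -0.38 to 0.73 for Tnfrsf11b, -0.54 to 0.22 for Csf1, -0.44 to 0.0024 for Il34, -0.41 to 0.20 for Acp5 and -0.20 to 0.49 for Ctsk, DZ differences of -0.056 to 0.41 for Acp5, and differences in effect of -0.31 to 0.71 for Csf1r and -0.084 to 0.55 for Acp5. Between zones it gave -0.21 to 0.049 for Runx1 and -0.80 to 0.29 for Eif2s3y. The Csf1 to Il34 ratio ranged from -0.35 to 0.46 in SFZ and -0.66 to 0.85 in DZ, and the Tnfsf11 to Tnfrsf11b ratio between zones from -1.90 to -1.06. Depth is unknown, so the precision of values below 1 FPKM, as for Tnfsf11 and Tnfrsf11a, cannot be given.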
